A study of Mus musculus with 6 samples.

Results

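The imprinted growth genes described here are Igf2, H19, Dlk1, Meg3, Rian, Cdkn1c, Peg3, Mest, Plagl1 and Ndn, 10 of the 49492 gene rows measured. They were chosen by name as imprinted genes that embryonic tissue is known to express strongly, with earlier results of these data known. All 10 were found in the table. RNA was measured in the soft palate, the muscular posterior part of the roof of the mouth, of mouse embryos at stage E14.5. The Dlx5-/- group (3 libraries) carried a null genotype for the homeobox gene Dlx5, which patterns the jaws and palate, and the control group (3 libraries) was wild type. The series asks how Dlx5 acts on cranial neural crest cells and muscle precursors as this region forms.

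An imprinted gene is expressed mainly from the copy inherited from one parent, through DNA methylation set in the germ line. Many paternally expressed imprinted genes favour growth of the embryo, and many maternally expressed ones restrain it. Several lie in clusters, in which a protein gene and a non-coding RNA are expressed from opposite parental copies. The genes are usually abundant in fetal mesenchyme, muscle and cartilage and are turned down after birth. The assay counts RNA from both parental copies together, so the parental origin was not measured.

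Libraries held 8741020, 10541150 and 11492409 estimated counts in the Dlx5-/- group and 9554906, 11922442 and 6891798 in controls. Levels are given as CPM, counts brought to a common library size, with TMM factors, which correct for a few very abundant genes taking part of a library. Dlx5 fell to 7, 15 and 17 estimated counts in Dlx5-/- libraries, against 242, 193 and 113 in controls (log2 fold change -3.93, SE 0.32, edgeR quasi-likelihood adjusted p = 0.0205). Dlx5-/- replicate 3 stood apart, with a mean correlation with the other libraries of 0.959, against 0.970 to 0.976 for the rest. Of 8 markers of palate mesenchyme, all passed the filter on low values, and their summed level was 769 to 848 CPM in Dlx5-/- libraries and 619 to 720 CPM in controls. Pdgfra and Prrx1 made up most of this sum. Of the 8 estimates 4 were above 0 and 4 below, those of Meox2, Shox2, Tbx22 and Msx1, with 0 called by edgeR and a median log2 fold change of 0.06. Summed markers of skeletal muscle were at 803 to 2183 CPM in Dlx5-/- libraries and 642 to 1053 CPM in controls. All 8 muscle estimates were above 0, with a median log2 fold change of 1.01 and 0 called by edgeR. Summed markers of cartilage were at 1812 to 5126 CPM in Dlx5-/- libraries and 1627 to 4164 CPM in controls. All 6 cartilage estimates were above 0, with a median of 0.44 and 0 called by edgeR. Over all genes tested, edgeR called 0.00617%, which is Dlx5 alone, and 52.5% of estimates were above 0. A count of 0 called therefore says little about any of these marker sets. These are pieces of whole tissue, in which fewer cells of a type and less RNA per cell cannot be told apart. Whether each library is from its own embryo or litter is not stated in the labels. The p-values therefore reflect only how these samples spread, which may be technical.

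Some of these genes are hosts of microRNAs, short RNAs that pair with target messages mainly through their seed. RefSeq (GRCm38.p6) holds 15 mature microRNAs inside 5 of the 10 genes, and all 15 seeds differ. The 8 shown come from H19 (miR-675), Igf2 (miR-483), Meg3 (miR-770) and Mest (miR-335), since these are the products by which the host RNAs are best known. Bases 2 to 8, the seed, are in capitals.
mmu-miR-675-5p: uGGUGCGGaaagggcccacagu
mmu-miR-675-3p: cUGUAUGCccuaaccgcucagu
mmu-miR-483-5p: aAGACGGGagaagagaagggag
mmu-miR-483-3p: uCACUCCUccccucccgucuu
mmu-miR-770-5p: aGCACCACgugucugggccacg
mmu-miR-770-3p: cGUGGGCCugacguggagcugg
mmu-miR-335-5p: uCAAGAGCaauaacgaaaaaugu
mmu-miR-335-3p: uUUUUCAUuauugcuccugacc
The table's rows for the microRNA genes inside H19, Igf2, Meg3 and Mest held 0 counts in the 6 libraries, and the 3 inside Rian held 3 counts in all. A library selected for polyadenylated RNA measures the host transcripts and not mature microRNAs, so nothing is said here about the levels of these small RNAs.

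Igf2 and H19 are neighbours on chromosome 7, at chr7:142650766-142666816 and chr7:142575529-142578143 (GRCm38, both minus strand). Igf2 encodes insulin-like growth factor 2, a main growth-promoting ligand of the embryo, and is expressed from the paternal copy. It had 4018, 4788 and 3396 CPM in Dlx5-/- libraries, against 4068, 3817 and 4069 CPM in controls. The groups overlapped, with both the highest and the lowest value among the Dlx5-/- libraries. Igf2 averaged 4067 ± 697 CPM in Dlx5-/- libraries and 3985 ± 145 CPM in controls (SD, n = 3 each), a log2 fold change of 0.03 (SE 0.13, edgeR adjusted p = 0.955). The 95% confidence interval ran from a 0.833-fold to a 1.25-fold level, so a larger change lies outside it in either direction.

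H19, the maternally expressed non-coding RNA next to Igf2, was the most abundant of the 10 genes. It had 6709.6, 8146 and 5834 CPM in Dlx5-/- libraries, against 6961.5, 6224 and 6777 CPM in controls. As for Igf2, Dlx5-/- replicate 2 was highest and Dlx5-/- replicate 3 lowest, and the groups overlapped. The log2 fold change was 0.05 (SE 0.13, edgeR adjusted p = 0.915), with an interval from 0.843-fold to 1.27-fold. The counts of H19 per count of Igf2 were 1.67, 1.70 and 1.72 in Dlx5-/- libraries, against 1.71, 1.63 and 1.67 in controls. On the log2 scale this ratio differed by 0.024 (two-sided exact permutation p = 0.4, 0.9 after adjustment over 3 ratios). With 3 libraries a group the smallest p this test allows is 0.1. H19 and Igf2 together took 1.04%, 1.13% and 1.06% of all counts in Dlx5-/- libraries and 1.07%, 1.04% and 1.09% in controls.

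The antisense gene Igf2os overlaps 98 exon bases of Igf2 and held 106, 186 and 178 estimated counts in Dlx5-/- libraries, against 142, 192 and 78.4 in controls. Whether counting used strand is not given in the sources used here, so reads of the overlap cannot be assigned with certainty.

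**Figure D1:**
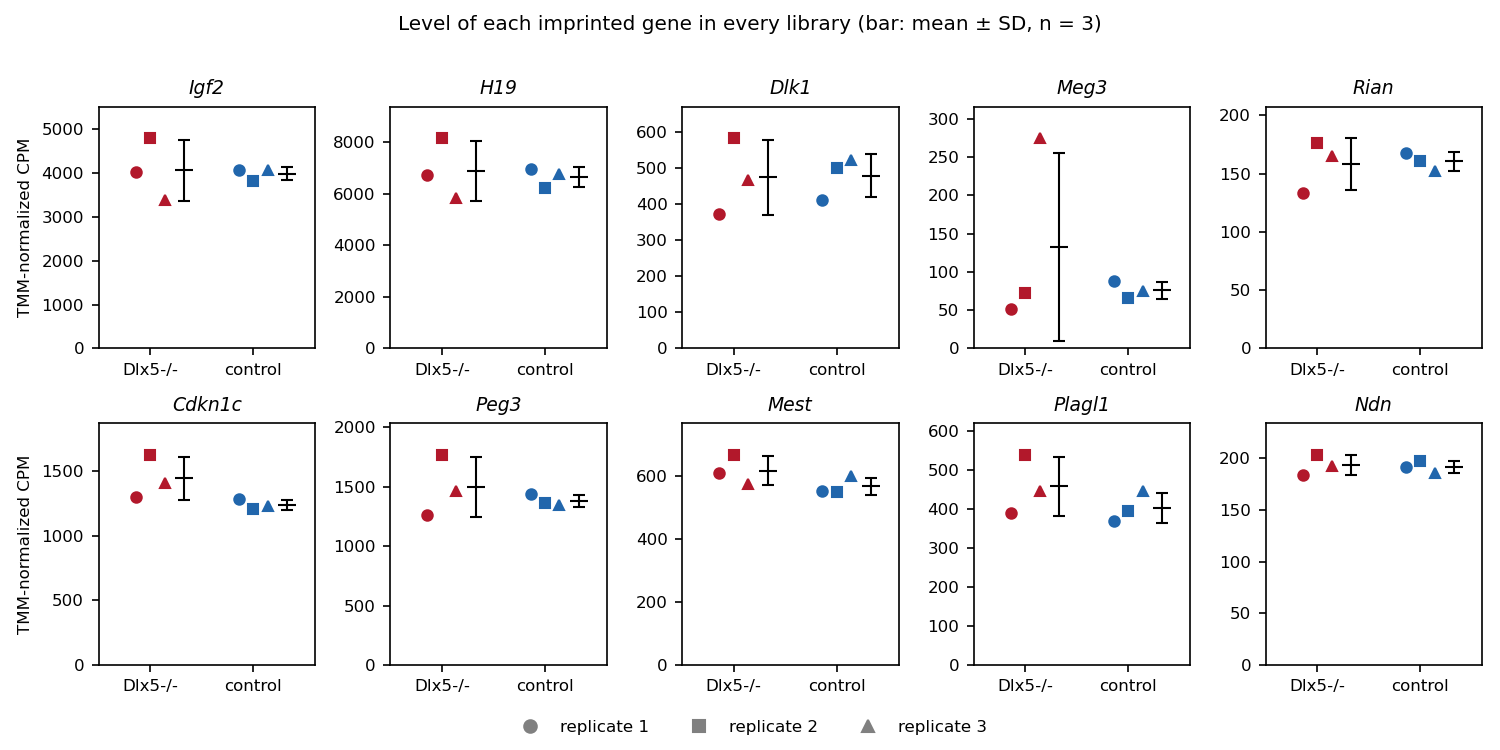
TMM-normalized CPM of the 10 imprinted growth genes in each library, on linear axes from 0, Dlx5-/- left of control. Points are libraries and bars the mean ± SD of 3. The groups overlap for all but Cdkn1c, and Meg3 has 1 point, Dlx5-/- replicate 3 at 274 CPM, far above the rest.

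The Dlk1-Meg3 domain on chromosome 12 holds 3 of the genes. Dlk1 (chr12:109452823-109463336, plus strand) encodes a paternally expressed transmembrane protein with EGF repeats, related to Notch ligands, that holds precursor cells of fat, muscle and cartilage in an immature state. Its level was 374, 582 and 467 CPM in Dlx5-/- libraries and 411, 501 and 524 CPM in controls. The control range lay inside that of the Dlx5-/- group, and the log2 fold change was -0.01 (SE 0.16, edgeR adjusted p = 0.983). The interval ran from 0.766-fold to 1.28-fold.

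Rian (chr12:109603940-109661716, plus strand) is a maternally expressed non-coding RNA that contains many small nucleolar RNAs. It had 134, 176 and 165 CPM in Dlx5-/- libraries, against 168, 161 and 152 CPM in controls. Here too the Dlx5-/- group held both extremes, and the log2 fold change was -0.02 (SE 0.11, edgeR adjusted p = 0.964).

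Meg3 (chr12:109541001-109571726, plus strand), a maternally expressed non-coding RNA made from the same strand as Rian, varied most. It had 51.3, 72.8 and 274 CPM in Dlx5-/- libraries, against 87.6, 65.6 and 75.3 CPM in controls. Dlx5-/- replicate 3 was high, while Dlx5-/- replicates 1 and 2 lay near or below the controls. The mean was 133 ± 123 CPM in Dlx5-/- libraries and 76.2 ± 11.0 CPM in controls (SD, n = 3 each), with a log2 fold change of 0.81 (SE 0.54, edgeR adjusted p = 0.590). Without Dlx5-/- replicate 3 the log2 fold change was -0.29, with a confidence interval from -0.66 to 0.07 (edgeR adjusted p = 0.486), and so of the opposite sign. With limma-trend on log2(CPM + 1) and all libraries it was 0.41.

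Meg3 is abundant in neurons, and Dlx5-/- replicate 3 also held transcripts of mature brain. The summed level of 8 brain markers was 24.3, 6.19 and 207 CPM in Dlx5-/- libraries, against 12.4, 4.87 and 14.52 CPM in controls. Slc17a7, a glutamate transporter of synaptic vesicles, was at 3.32, 2.72 and 64.1 CPM in Dlx5-/- libraries, against 4.97, 2.11 and 5.75 CPM in controls. Gad1, which makes the transmitter GABA, was at 2.49, 0.435 and 52.7 CPM in Dlx5-/- libraries, against 0.864, 0.649 and 2.44 CPM in controls. Of the 8 markers, 7 passed the filter on low values and 0 were called by edgeR, against 0.00617% of all genes. Among markers of neurons in general, Snap25, a protein of synaptic vesicle fusion, was at 37.9, 26.0 and 156 CPM in Dlx5-/- libraries and 51.4, 63.5 and 56.9 CPM in controls. Snap25 was not typical of the 8 neuron markers. Tubb3, Elavl4, Stmn2, Nefm, Nefl and Gap43 were each at their lowest of the 6 libraries in Dlx5-/- replicate 3, as for Nefm, a neurofilament, with 765, 645 and 536 CPM in Dlx5-/- libraries and 1160.2, 1529.9 and 1132 CPM in controls. The part of these transcripts in the Meg3 value of Dlx5-/- replicate 3 was not tested.

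**Figure D2:**
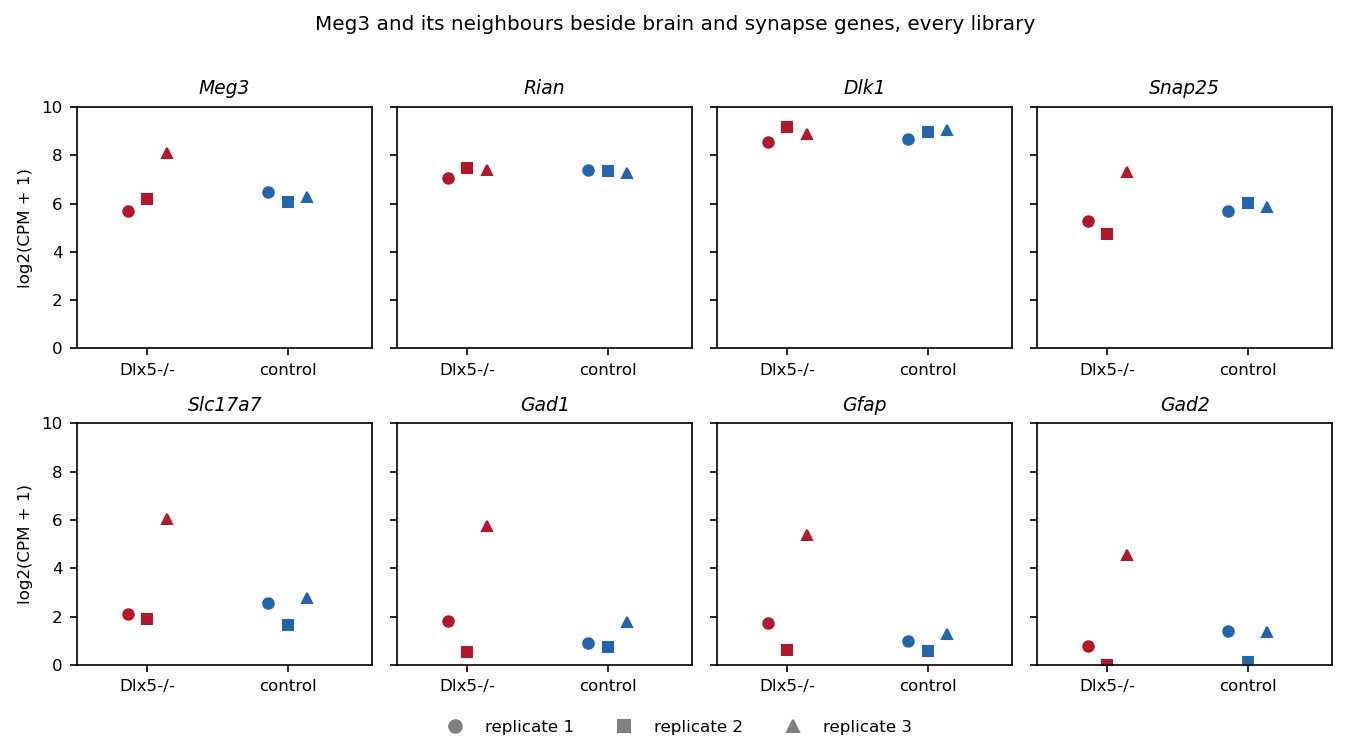
Levels of Meg3, its domain neighbours Dlk1 and Rian, and 5 brain or synapse genes in each library, as log2(CPM + 1), Dlx5-/- left of control. Meg3, Snap25, Slc17a7, Gad1, Gfap and Gad2 are high in Dlx5-/- replicate 3, where Rian (165 CPM) and Dlk1 (467 CPM) lie among the other libraries. Of the neuron markers not drawn, Tubb3, Elavl4, Stmn2, Nefm, Nefl and Gap43 are lowest there.

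Within the domain, the counts of Rian per count of Meg3 were 2.61, 2.42 and 0.601 in Dlx5-/- libraries, against 1.92, 2.46 and 2.02 in controls. The counts of Dlk1 per count of Meg3 were 7.29, 7.99 and 1.70 in Dlx5-/- libraries, against 4.70, 7.64 and 6.96 in controls. Dlx5-/- replicate 3 was the lowest library for both ratios. Each log2 ratio differed by -0.44, Dlx5-/- minus control (two-sided exact permutation p = 0.9 for each). Without Dlx5-/- replicate 3 the differences were 0.24 for Rian (exact p = 0.3) and 0.28 for Dlk1 (exact p = 0.5).

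Cdkn1c (chr7:143458339-143461050, minus strand) encodes p57Kip2, a maternally expressed inhibitor of cyclin-dependent kinases that takes muscle and cartilage precursors out of the cell cycle. It had 1299.5, 1625 and 1404 CPM in Dlx5-/- libraries, against 1284, 1209 and 1228 CPM in controls. All Dlx5-/- libraries lay above all controls, by a narrow margin for Dlx5-/- replicate 1. The mean was 1443 ± 166 CPM in Dlx5-/- libraries and 1240.2 ± 39.0 CPM in controls, a log2 fold change of 0.22 (SE 0.10, edgeR adjusted p = 0.412, unadjusted p = 0.0587). The interval ran from 0.993-fold to 1.36-fold. Cdkn1c was the 1 gene of the 10 whose groups did not overlap, where 19.2% of all genes tested had groups apart and 9.48% had the Dlx5-/- group above. Without Dlx5-/- replicate 2 the log2 fold change was 0.11.

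Plagl1 (chr10:13060504-13131694, plus strand) encodes a paternally expressed zinc finger transcription factor, known in mouse for regulating other imprinted genes. It had 389.65, 539 and 447 CPM in Dlx5-/- libraries, against 369, 396 and 446 CPM in controls. The groups overlapped, and the log2 fold change was 0.18 (SE 0.13, edgeR adjusted p = 0.613). Without Dlx5-/- replicate 2 it was 0.040, and without Dlx5-/- replicate 1 it was 0.29. Peg3 (chr7:6703892-6730431, minus strand), a paternally expressed zinc finger protein, had 1263, 1767 and 1461.5 CPM in Dlx5-/- libraries and 1439, 1359 and 1345 CPM in controls. Its log2 fold change was 0.12 (SE 0.12, edgeR adjusted p = 0.755), and the Dlx5-/- group held the lowest and the highest library.

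Mest (chr6:30723547-30748465, plus strand) encodes a paternally expressed protein of the alpha/beta hydrolase family, named for its expression in mesoderm. It was measured at 612, 668 and 575 CPM in Dlx5-/- libraries, against 555, 550.1 and 600.3 CPM in controls. The groups overlapped through control replicate 3, and the log2 fold change was 0.12 (SE 0.09, edgeR adjusted p = 0.618), or 0.051 without Dlx5-/- replicate 2. Copg2 overlaps 912 exon bases of Mest on the opposite strand, with 310.3 to 642 estimated counts per library against 4176 to 7619 for Mest.

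Ndn (chr7:62346569-62350262, plus strand) encodes necdin, a paternally expressed protein of the MAGE family that holds back proliferation in neurons and muscle precursors. It had 184, 203 and 192 CPM in Dlx5-/- libraries, against 191, 198 and 186 CPM in controls. It was the steadiest of the 10, its highest library being 1.10 times its lowest, and the log2 fold change was 0.01 (SE 0.08, edgeR adjusted p = 0.971).

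In all, edgeR called 0 of the 10 genes, against 0.00617% of the 16218 genes tested, which is Dlx5 alone. At an unadjusted p under 0.05 it was 0 of 10, where 12.8% of all genes passed. That count was 3 of 10 without Dlx5-/- replicate 1, 2 with no filter, and 1 with DESeq2, without Dlx5-/- replicate 3 or with ribosomal RNA rows removed. Over all genes, 2081 of 16218 passed in the main fit and 2018 without Dlx5-/- replicate 1. This was 2918 of 29870 with no filter, 1685 with DESeq2, 2191 without Dlx5-/- replicate 3 and 2085 with ribosomal RNA rows removed. DESeq2 also called 0 of 10, against 3.13% of all genes, and limma-trend called 0 of 10, against 0.598% at a pseudocount of 1 CPM and 0.592% at 0.5 CPM. The count was likewise 0 of 10 with library totals (0.253% of all genes), with no filter (2.27%), with a filter of 5 CPM (0.591%), and without Dlx5-/- replicate 3 (1.01% by edgeR and 2.64% by DESeq2). It was 0 of 10 without control replicate 1 (0.037% of all genes) and without control replicate 2 (0.0247%). Estimates were above 0 for 8 of 10 genes, where 52.5% of all genes were, and the median log2 fold change was 0.08, beside 0.01 over all genes. All 10 passed the filter on low values. Of these signs, those of Igf2, H19, Dlk1, Meg3, Rian, Peg3 and Ndn turned when a library was left out, and those of Igf2 and Ndn also turned when library totals were used for scaling.

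**Figure D3:**
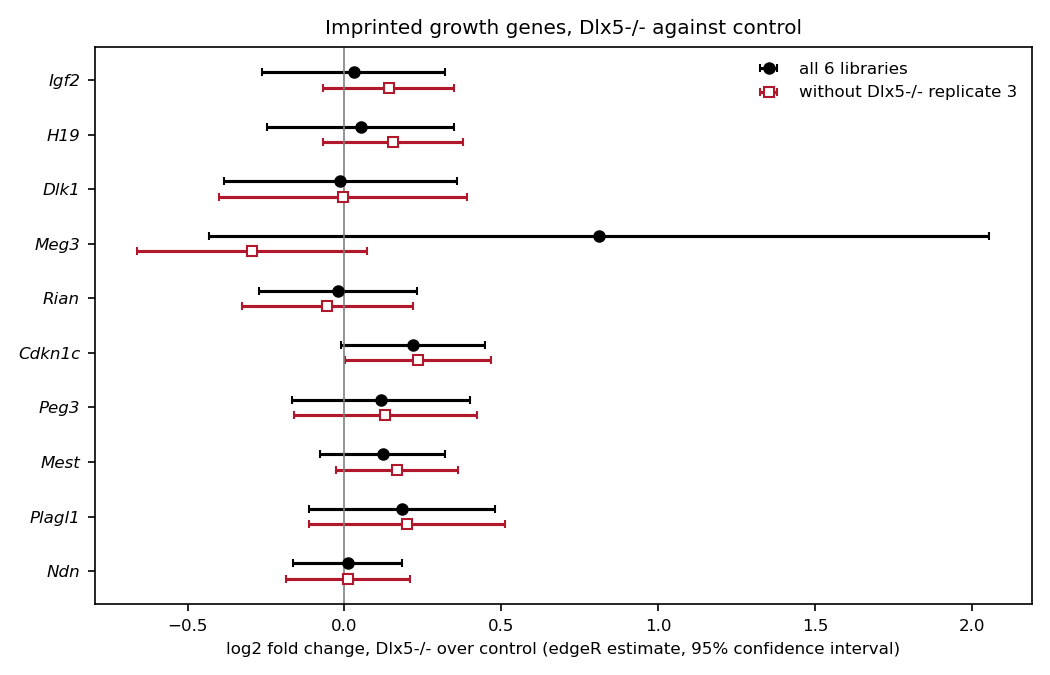
Log2 fold change, Dlx5-/- over control, of the 10 genes with 95% confidence intervals, by edgeR. Filled circles are the fit with all 6 libraries and open squares the fit without Dlx5-/- replicate 3. With all 6 libraries, all 10 intervals include 0, and that of Meg3, from -0.43 to 2.06, is the widest. Without Dlx5-/- replicate 3 the interval of Cdkn1c, from 0.0014 to 0.47, lies just above 0 (edgeR adjusted p = 0.368).

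Levels of different genes were compared per kilobase of annotated exon. H19 stood first at 2803.5 ± 474 CPM per kilobase in Dlx5-/- libraries and 2705 ± 156 in controls (SD, n = 3 each). Igf2 came next on this scale, with 711 ± 122 in Dlx5-/- libraries and 696 ± 25.3 in controls. Cdkn1c had 708 ± 81.4 in Dlx5-/- libraries and 608 ± 19.1 in controls, so that it was within the spread of Igf2 in the Dlx5-/- group. Mest followed at 157 in Dlx5-/- libraries and 144 in controls. Peg3 was at 112 in Dlx5-/- libraries and 104 in controls, and Dlk1 at 83.9 in Dlx5-/- libraries and 84.6 in controls. Plagl1, at 58.6 in Dlx5-/- libraries and 51.7 in controls, and Ndn, at 52.3 in Dlx5-/- libraries and 51.9 in controls, did not differ beyond their spread. Rian was at 8.68 in Dlx5-/- libraries and 8.80 in controls, and Meg3 at 7.34 in Dlx5-/- libraries and 4.21 in controls. The exon length joins all annotated transcripts, which for Meg3 (18089 bases) and Rian (18234 bases) is longer than most single transcripts and lowers these values.

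Together the 10 genes took 1.45%, 1.62% and 1.64% of all counts in Dlx5-/- libraries, against 1.51%, 1.496% and 1.55% in controls. The highest library was 1.40 times the lowest for these genes, as the median over the 10, against 1.24 over 1559 genes with a mean of at least 100 CPM. On the TMM scale Dlx5-/- replicate 2 was the highest library for 9 of the 10 genes, where it was the highest for 16.8% of all genes tested. This order moved with the scaling. With library totals Dlx5-/- replicate 2 was highest for 2 of 10 and Dlx5-/- replicate 3 for 8 of 10, and with rows of ribosomal RNA left out of the totals for 7 and 3. The 6 rows that collect ribosomal RNA took 24.2%, 29.0% and 12.96% of counts in Dlx5-/- libraries, against 22.3%, 18.8% and 20.6% in controls. Cdkn1c had all Dlx5-/- libraries above all controls on each of the 3 scales.

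Promoter sequence was looked at for 2 short motifs, GGGGCCCC, the core of the motif known for Plagl1, and TAATTA, a core bound by many homeodomain proteins. Both read the same on either strand and do not overlap each other. RefSeq (GRCm38.p6) holds 14 promoters of 300 bases for 8 of the 10 genes. H19 and Cdkn1c had no promoter in this set, so neither motif was looked for in them. GGGGCCCC was found in 1 of the 14, for Peg3, and in 1.08% of 32851 promoters. The Peg3 promoter (chr7:6730370-6730669, minus strand) has it at base 50, in capitals. This lies at position -201 from the start site of transcription, on the upstream side.
Peg3 promoter: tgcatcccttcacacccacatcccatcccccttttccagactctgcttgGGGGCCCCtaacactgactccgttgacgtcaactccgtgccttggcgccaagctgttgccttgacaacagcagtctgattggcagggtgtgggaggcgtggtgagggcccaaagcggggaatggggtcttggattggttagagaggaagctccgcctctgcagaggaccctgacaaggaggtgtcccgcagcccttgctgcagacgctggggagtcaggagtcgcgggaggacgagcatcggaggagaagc
TAATTA was found in 1 of the 14, for Igf2, and in 5.29% of all promoters. That Igf2 promoter (chr7:142658755-142659054, minus strand) has it at base 265, in capitals. This lies at position 14 from the start site, on the downstream side.
Igf2 promoter: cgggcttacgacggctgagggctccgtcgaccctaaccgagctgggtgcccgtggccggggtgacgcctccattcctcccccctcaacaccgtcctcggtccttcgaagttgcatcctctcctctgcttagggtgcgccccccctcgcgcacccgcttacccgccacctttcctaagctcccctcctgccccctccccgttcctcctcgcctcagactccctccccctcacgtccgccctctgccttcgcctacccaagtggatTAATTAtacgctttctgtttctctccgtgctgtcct
These are matches of letters in a window and not sites shown to be bound.

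Beyond the 10 genes, a list of 52 other imprinted genes was examined, of which 44 passed the filter on low values. EdgeR called 0 of the 44, against 0.00617% of all genes. At an unadjusted p under 0.05, 5 were higher and 4 lower, where 5.6% of all genes were higher and 7.23% lower. DESeq2 called 3 of the 44 as lower (2.39% of all genes), and limma-trend called 1 (0.598% of all genes in either direction). The groups were apart for 11 of them, 6 with the Dlx5-/- group above (9.48% of all genes) and 5 with it below (9.71%). The median log2 fold change was 0.07.

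Those with the smallest p-values on the lower side are known for expression in neurons. Not all imprinted genes expressed in neurons were lower. Ndn had a log2 fold change of 0.01 (edgeR adjusted p = 0.971). Meg3 had 0.81 (edgeR adjusted p = 0.590), through Dlx5-/- replicate 3. Nnat, which encodes the membrane protein neuronatin, had 478, 523 and 415 CPM in Dlx5-/- libraries, against 738, 996 and 881 CPM in controls. All Dlx5-/- libraries lay below all controls, with a log2 fold change of -0.89 (SE 0.13, edgeR adjusted p = 0.0549). By DESeq2 the adjusted p was 1.01e-08 and by limma-trend 0.0429, and without Dlx5-/- replicate 3 the log2 fold change by edgeR was -0.80 (adjusted p = 0.0338). Over all alternatives run the adjusted p for Nnat ranged from 1.01e-08 to 0.236.

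Snrpn, a splicing-related protein of the Ndn domain, had 60.4, 48.7 and 59.7 CPM in Dlx5-/- libraries, against 77.0, 84.3 and 82.5 CPM in controls. The groups were apart, with a log2 fold change of -0.53 (SE 0.10, edgeR adjusted p = 0.0749, DESeq2 adjusted p = 0.00268). Peg13, a non-coding RNA, had 54.6, 48.7 and 56.8 CPM in Dlx5-/- libraries, against 71.0, 91.1 and 74.6 CPM in controls, again with the groups apart. Its log2 fold change was -0.57 (SE 0.11, edgeR adjusted p = 0.0804, DESeq2 adjusted p = 0.00347). Inpp5f, an inositol phosphatase, had 34.9, 29.9 and 32.1 CPM in Dlx5-/- libraries and 39.1, 43.7 and 46.4 CPM in controls (log2 fold change -0.41, edgeR adjusted p = 0.133). Over the alternatives the adjusted p ranged from 0.00268 to 0.327 for Snrpn and from 0.00347 to 0.307 for Peg13.

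Summed markers of neurons were lower in the Dlx5-/- group too. The summed level of 8 neuron markers was 2114, 1815 and 1554 CPM in Dlx5-/- libraries, against 3069.7, 3921 and 3058 CPM in controls. Of the 8 estimates 7 were below 0, where 52.5% of all estimates were above. EdgeR called 0 of the 8, against 0.00617% of all genes. Summed markers of the pituitary were also lower, at 41.0 to 87.5 CPM in Dlx5-/- libraries and 124 to 208 CPM in controls. The part of neuron or pituitary transcripts in the values of Nnat, Snrpn, Peg13 and Inpp5f was not tested. On the higher side, Peg12 of the Ndn domain had 18.5, 22.9 and 21.0 CPM in Dlx5-/- libraries, against 17.2, 14.53 and 14.8 CPM in controls (log2 fold change 0.42, edgeR adjusted p = 0.228). Ddc, an enzyme of dopamine and serotonin synthesis, was low, with 4.03, 4.02 and 5.58 CPM in Dlx5-/- libraries and 2.38, 3.17 and 1.73 CPM in controls (log2 fold change 0.89, edgeR adjusted p = 0.285).

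**Figure D4:**
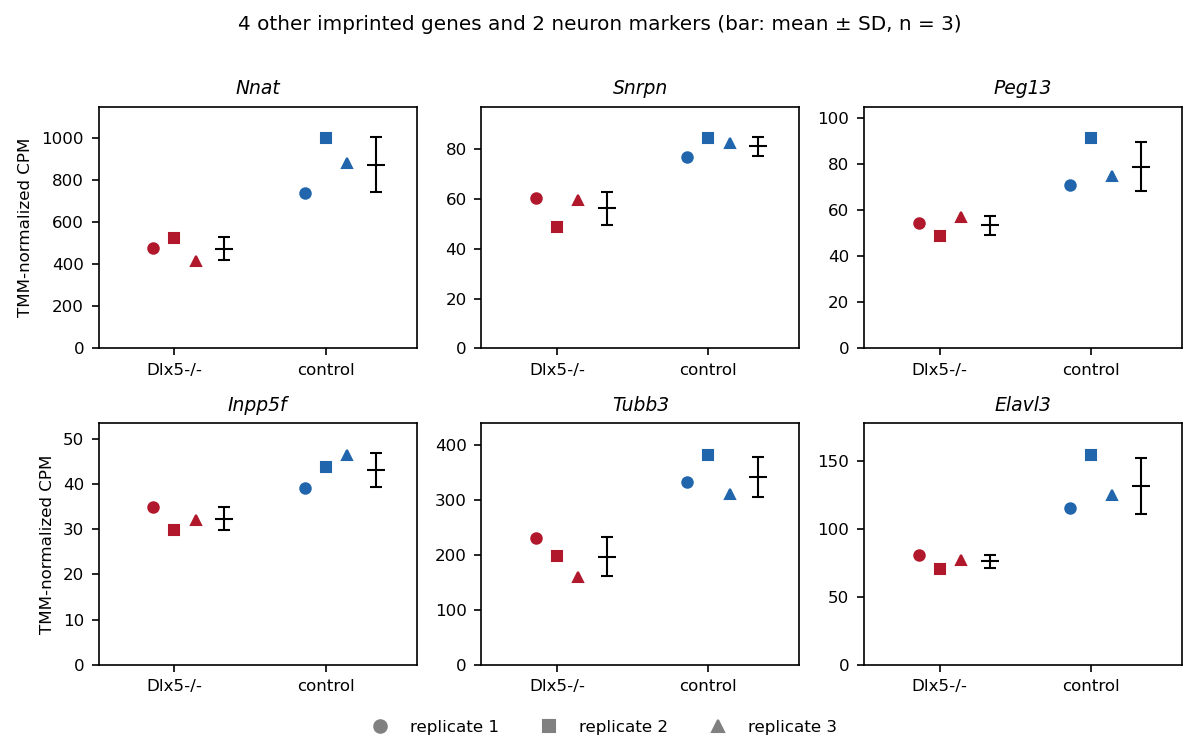
TMM-normalized CPM of Nnat, Snrpn, Peg13 and Inpp5f and of the neuron markers Tubb3 and Elavl3 in each library, Dlx5-/- left of control, with bars for the mean ± SD of 3. For each, all Dlx5-/- libraries lie below all controls, as for Nnat at 415 to 523 CPM in Dlx5-/- libraries and 738 to 996 CPM in controls.

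The other imprinted genes that lie in the same domains as the 10 are part of that list. EdgeR called none of them, against 0.00617% of all genes. In the Cdkn1c domain Cd81, a membrane protein, had a log2 fold change of 0.09 (edgeR adjusted p = 0.790), and the non-coding Kcnq1ot1 -0.15 (adjusted p = 0.863). In the Dlk1-Meg3 domain the further genes Rtl1, Mirg, Dio3 and Begain had estimates between 0.07 and 0.31. Without Dlx5-/- replicate 3 those of Begain and Dio3 were -0.07 and -0.04. In the Peg3 domain Usp29 had 0.07 and Zim1 0.21. In the Ndn domain Magel2, whose groups overlapped, had 0.57 (edgeR adjusted p = 0.470), or 0.32 without Dlx5-/- replicate 3. Ube3a, a ubiquitin ligase, had -0.15, with all Dlx5-/- libraries below all controls, as for 9.71% of all genes.

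**Figure D5:**
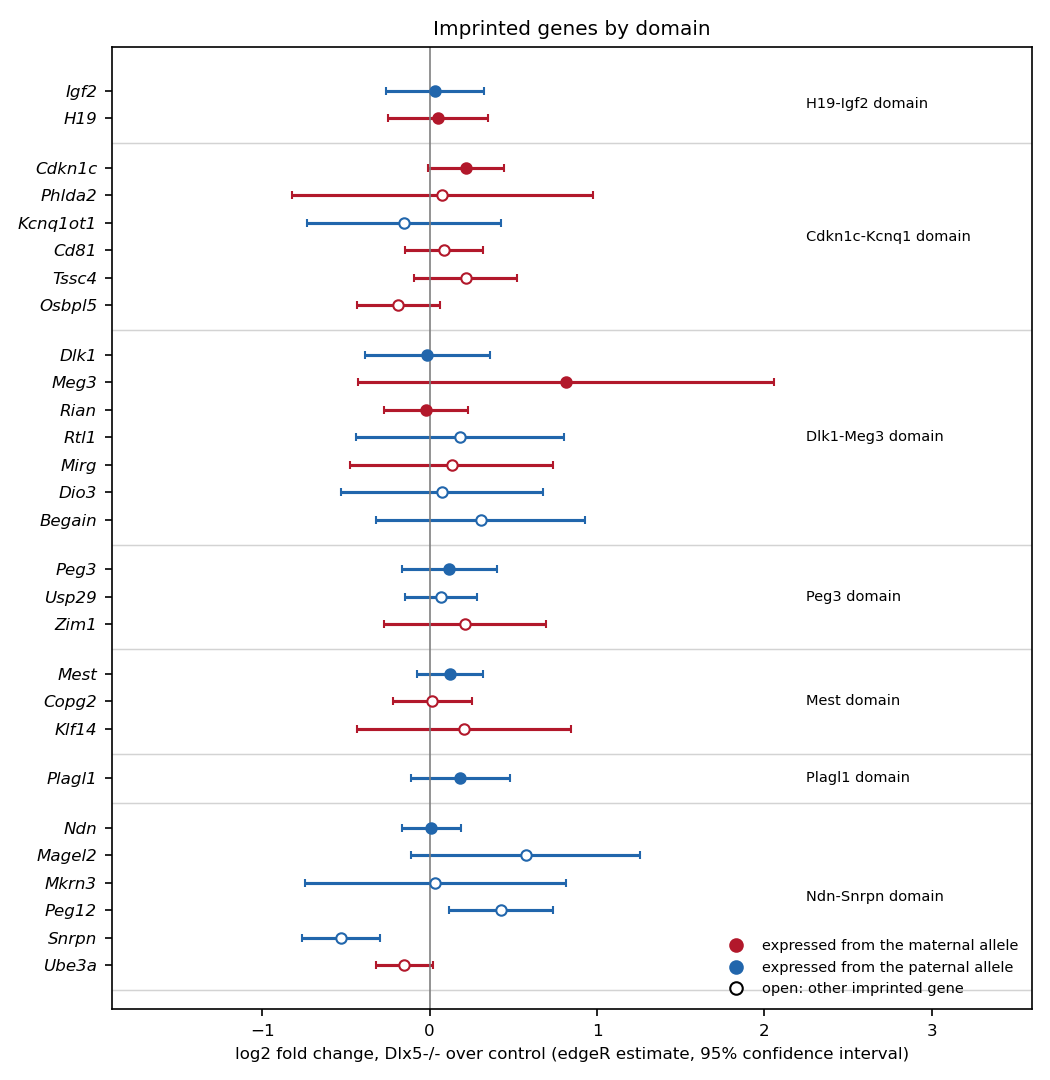
Log2 fold change, Dlx5-/- over control, of the measured genes in each imprinted domain, with 95% confidence intervals, coloured by the parental copy known to be expressed and open for genes other than the 10. Estimates of genes from either copy lie on both sides of 0, and Meg3 has the widest interval of the Dlk1-Meg3 domain.

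Further lists covered the pathways on which the 10 genes act. Of 22 genes of the insulin-like growth factor pathway, 20 passed the filter and edgeR called 0. At an unadjusted p under 0.05, 2 were higher and 3 lower, where 5.6% of all genes were higher and 7.23% lower. This count of 5 was 9 without Dlx5-/- replicate 2, 9 with no filter and 3 with library totals. Over all genes, 2081 of 16218 passed in the main fit and 2184 without Dlx5-/- replicate 2. This was 2918 of 29870 with no filter and 1388 with library totals. DESeq2 and limma-trend called 0 of the 20, against 3.13% and 0.598% of all genes. Irs4, an adaptor of insulin and IGF receptors, had 17.3, 17.8 and 4.90 CPM in Dlx5-/- libraries, against 28.1, 51.9 and 39.7 CPM in controls. The groups were apart, with a log2 fold change of -1.62 (SE 0.43, edgeR adjusted p = 0.152). Markers of the pituitary, which lies above the palate, were lower in the same libraries. Their summed level, with Gh at 0 in all libraries, was 87.5, 87.0 and 41.0 CPM in Dlx5-/- libraries, against 124, 208 and 186 CPM in controls. Of the 8 markers 6 passed the filter, and all 6 had estimates below 0, where 52.5% of all estimates were above. EdgeR called 0 of the 6, against 0.00617% of all genes. Pomc, a precursor of pituitary hormones, had 51.3, 40.5 and 3.24 CPM in Dlx5-/- libraries, against 68.6, 119 and 115 CPM in controls. The part of pituitary transcripts in the Irs4 value was not tested. Pappa2, a protease that frees IGF from its binding proteins, had 26.2, 27.8 and 25.4 CPM in Dlx5-/- libraries and 34.4, 40.3 and 34.2 CPM in controls (log2 fold change -0.46, edgeR adjusted p = 0.0995). Igf2bp1, an RNA-binding protein that binds Igf2 messages, had 88.8, 93.7 and 128 CPM in Dlx5-/- libraries and 80.5, 80.3 and 74.2 CPM in controls (log2 fold change 0.41, edgeR adjusted p = 0.265). Without Dlx5-/- replicate 3 it was 0.22. The related Igf2bp2 had an estimate of 0.20 (adjusted p = 0.254), and the binding proteins Igfbp5 and Igfbp2 had -0.35 and 0.26 (adjusted p = 0.308 and 0.397).

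Of 17 genes for inhibitors of cyclin-dependent kinases, the kinases and cyclins, 15 passed the filter. EdgeR, DESeq2 and limma-trend called 0 of the 15, against 0.00617%, 3.13% and 0.598% of all genes. At an unadjusted p under 0.05, 8 were higher and 1 lower, where 5.6% of all genes were higher and 7.23% lower. This count of 9 was 2 with library totals, 5 without control replicate 1, 4 without control replicate 3, and 6 with DESeq2, without Dlx5-/- replicate 2 or without control replicate 2. Over all 16218 genes, 2081 passed in the main fit, 1388 with library totals and 1685 with DESeq2. This was 1925, 1430 and 1477 without control replicates 1, 2 and 3, and 2184 without Dlx5-/- replicate 2. With all libraries on the TMM scale, 8 of the 15 had all Dlx5-/- libraries above all controls, beside 9.48% of all genes. The median log2 fold change was 0.25. Ccnb1, a mitotic cyclin, had 34.7, 31.8 and 32.4 CPM in Dlx5-/- libraries, against 26.7, 25.9 and 22.4 CPM in controls (log2 fold change 0.39, SE 0.10, edgeR adjusted p = 0.146). Ccna2, the cyclin of S phase, had 81.1, 75.7 and 78.5 CPM in Dlx5-/- libraries, against 67.2, 64.5 and 60.2 CPM in controls (0.29 on the log2 scale, edgeR adjusted p = 0.154). Cdk2 and Cdk4, kinases of the G1 phase, had estimates of 0.38 and 0.26 (adjusted p = 0.186 and 0.197). Cdk1 and Ccnd1 had 0.29 and 0.37 (adjusted p = 0.266 for each).

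Of 19 genes of the Notch pathway and Dlk family, 18 passed the filter. EdgeR, DESeq2 and limma-trend called 0 of these, against 0.00617%, 3.13% and 0.598% of all genes. At an unadjusted p under 0.05, 0 were higher and 1 lower, where 5.6% of all genes were higher and 7.23% lower. The Dlx5-/- group lay above in 1 gene and below in 3, beside 9.48% and 9.71% of all genes. Hey2, a transcription factor induced by Notch, had 23.7, 21.1 and 19.99 CPM in Dlx5-/- libraries, against 29.5, 30.2 and 25.3 CPM in controls (log2 fold change -0.40, edgeR adjusted p = 0.194). The ligand Jag2 had an estimate of -0.33 (adjusted p = 0.398), and Hey1 -0.24 (adjusted p = 0.440). The Dlk1 relative Dlk2 was at 1.78, 2.61 and 3.999 CPM in Dlx5-/- libraries and 2.48, 1.95 and 1.73 CPM in controls.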

How the data were processed

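Per the labels' protocols, RNA came from the posterior part of the palate and libraries were made with a TruSeq mRNA kit. Per the submitters' processing notes, STAR 2.4.1d, Partek and the build mm10 were used. The sources used here do not give the counting settings. The table deposited by the authors is named as normalized gene counts, and its values, as deposited, were read as estimated counts per gene, since 64.5% of those above 0.5 were whole within 0.001 and the columns keep unequal totals. No source used here says what the normalization was, and if the values had been rescaled, the counts printed and the count tests would be off by that scaling. A further 1 column could be matched to no labelled sample and was set aside. Estimated counts were rounded, genes with a mean of at least 1 CPM were kept (16218), and Dlx5-/- was compared with control by edgeR 4.0.16 (R 4.3.3), quasi-likelihood, TMM, with Benjamini-Hochberg adjustment at 0.05 over all of them. Intervals are 95%. Alternatives were limma-trend (limma 3.58.1), DESeq2 1.42.0, other scalings and filters, and libraries left out. Named from each list are up to 6 genes with the smallest p. Coordinates came from GENCODE M21 on GRCm38, sequences from RefSeq, and figures from matplotlib 3.10.9. The members and lists were chosen with earlier results of these data known.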

Additional observations from a re-analysis of the deposited data

How the results depend on the processing

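With 3 libraries a group, the precision is set by the spread between libraries. No member was called under any of the 16 alternatives run. The count of genes called over all genes, 1 in the main analysis, was 41 with library totals, 679 with no filter, 74 with a filter of 5 CPM, 506 with DESeq2, 97 with limma-trend at a pseudocount of 1 and 96 at 0.5, 0 with a replicate block, and 0 to 164 with a library left out, 164 without Dlx5-/- replicate 3. Chosen after seeing the data, DESeq2 without that library called 428. Of the other imprinted genes, 0 were called in the main analysis, 1 with library totals, 3 with no filter, 1 with 5 CPM, 3 with DESeq2, 1 with either limma-trend, and 0 to 2 with a library left out. Of the IGF pathway genes 2, Irs4 and Pappa2, were called with no filter. Estimates reversed with library totals for Igf2 (-0.0024) and Ndn (-0.0017), and for Meg3 with DESeq2 without Dlx5-/- replicate 3 (-0.30). With a library left out, log2 fold changes ran from -0.12 to 0.14 for Igf2, -0.10 to 0.16 for H19, -0.20 to 0.13 for Dlk1, -0.29 to 1.19 for Meg3, -0.11 to 0.086 for Rian, -0.031 to 0.23 for Peg3, 0.11 to 0.29 for Cdkn1c, 0.040 to 0.29 for Plagl1, 0.051 to 0.17 for Mest and -0.038 to 0.044 for Ndn, and differences of the log2 ratio from -0.82 to 0.24 for Rian to Meg3 and -0.84 to 0.28 for Dlk1 to Meg3. The cause was not tested. The labels do not say whether same-numbered libraries are paired. Their correlations of deviations were -0.014, -0.011 and 0.020, and no library correlated best with its own number. With 3 libraries a group this does not settle whether they share a litter or batch. With the replicate block the Meg3 estimate was 0.42 and Dlx5 stood at -3.88 (edgeR adjusted p = 0.0620). Its adjusted p by edgeR was 0.0949 without Dlx5-/- replicate 1, 0.0631 without Dlx5-/- replicate 2 and 0.107 without control replicate 3.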

Other observations

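The genes whose levels over the 6 libraries were most like each member's were taken from 11576 genes with a mean of at least 5 CPM, by the root-mean-square difference of centred log2(CPM + 1) values. Furin, a protease that cleaves precursors of secreted proteins, was nearest to both Igf2 (0.0202) and H19 (0.0190). It had 71.8, 86.6 and 62.8 CPM in Dlx5-/- libraries, against 74.9, 68.3 and 74.6 CPM in controls. Nearest to Meg3 was Iqsec3, a synaptic exchange factor, with a difference of 0.116, at 3.55, 4.35 and 19.2 CPM in Dlx5-/- libraries, against 6.37, 4.95 and 5.03 CPM in controls. Hand2, a transcription factor of neural crest, came next for Meg3 (0.150), at 3.32, 5.54 and 23.2 CPM in Dlx5-/- libraries, against 5.18, 5.20 and 6.33 CPM in controls. Cdkn1c was nearest to Hif1an (0.0367), Rian to Zfyve16 (0.0194), Mest to Atg5 (0.0134) and Ndn to Ythdf3 (0.0147). Some genes of 11576 will lie close to any profile over 6 libraries.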
